A study of Sus scrofa domesticus with 6 samples.

Results

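The red cell lineage was followed through 7 genes: the transcription factors GATA1, GATA2, TAL1 and KLF1, the erythropoietin receptor EPOR, the heme enzyme ALAS2 and the membrane anion exchanger SLC4A1. They were taken by name from the 25322 gene rows of the deposited table, where each name had 1 row and 0 names were absent. The libraries come from the condyle of the lower jaw, the growing end of the mandible at the jaw joint, of miniature pig embryos (labelled Sus scrofa domesticus). There are 3 libraries from embryos of 85 days and 3 from embryos of 45 days, with no genetic change and no drug named for either age. The labels call the tissue cartilage and its cells chondrocytes and osteocytes. They do not say whether each library is a separate embryo, so a p-value here covers only the spread among libraries, which may in part be technical.

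Total counts per library were 12546729 to 16559616. Cartilage genes such as COL2A1 were present at both ages, with 372, 16112 and 768 counts at day 85, against 81653, 56938 and 57054 at day 45. Red cell RNA was present beside them: the rows of HBB (beta globin) and HBQ1 (an alpha-family globin) took 0.314%, 0.501% and 0.124% of counts at day 85 and 0.177%, 0.142% and 0.0989% at day 45. Day 85 replicate 2 stood apart from the other day 85 libraries. Its summed osteoclast list (14 genes) was at 15223 normalised CPM (read counts scaled by TMM-corrected library size), against 2215 and 2633 in replicates 1 and 3, and its skeletal muscle list (13 genes) at 2854, against 38233 and 34020. The values without that library stand beside the results it moves.

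As background, red cells arise from blood progenitors in which GATA2, TAL1 and their partner proteins maintain the multipotent state. As cells commit, GATA1 takes over many sites first held by GATA2, and together with TAL1 and KLF1 it switches on the genes of the red cell, among them those for globin, heme and the membrane skeleton. EPOR carries the erythropoietin signal that keeps early erythroid cells alive, ALAS2 starts heme synthesis in these cells, and SLC4A1, known as band 3, exchanges chloride for bicarbonate and anchors the membrane skeleton late in maturation. GATA2 and TAL1 are also made by endothelial cells, and GATA2 by mast cells. In whole tissue, fewer cells of a type and less RNA per cell cannot be told apart.

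At day 85 the condyle libraries held more RNA of the erythroid genes than at day 45. SLC4A1, KLF1, TAL1 and GATA2 rose, and EPOR and ALAS2 had higher means without passing the test. In normalised CPM the 3 libraries of day 85 lay above the 3 of day 45 for 7 of 7 genes, which held for 14.9% of the genes with a count; among tested genes it held for 6 of 6 erythroid genes, beside 17.4% of all. Every fold change is the level at day 85 divided by that at day 45 (n = 3 each). Adjusted p-values are Benjamini-Hochberg values over 15022 tested genes from the quasi-likelihood test of edgeR. Of the 6 erythroid genes that passed the filter on low counts, 4 were called higher and 0 lower at an adjusted p under 0.05, beside 3.9% of all tested genes called higher and 2.66% called lower. Of all calls 59.4% were higher, and with library totals as the only scaling 42.2% were (437 higher and 598 lower). GATA1 did not pass the filter, and a gene can pass it through day 85 alone, so this count is a description.

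The calls rest on few libraries. Without day 85 replicate 2 the same 4 genes were called, beside 12.3% of all genes tested there. Without any 1 of the other 5 libraries 0 were called by edgeR, with adjusted p-values of these 4 genes from 0.0502 to 0.161. Few genes of any kind were called in those 5 fits, between 0% and 0.611% higher. An unadjusted p under 0.05 was still reached by 7 of 7 erythroid genes in each, beside 9.79% to 13.5% of all genes tested there and higher. With all libraries, 6 of 6 tested erythroid genes had one, beside 15.8% of all tested genes in that direction. DESeq2 called 7 of 7 higher, GATA1, EPOR and ALAS2 included, beside 12.6% of its genes called higher and 10.8% called lower. The smallest p that an exact permutation of 3 against 3 libraries can give is 0.1.

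**Figure D1:**
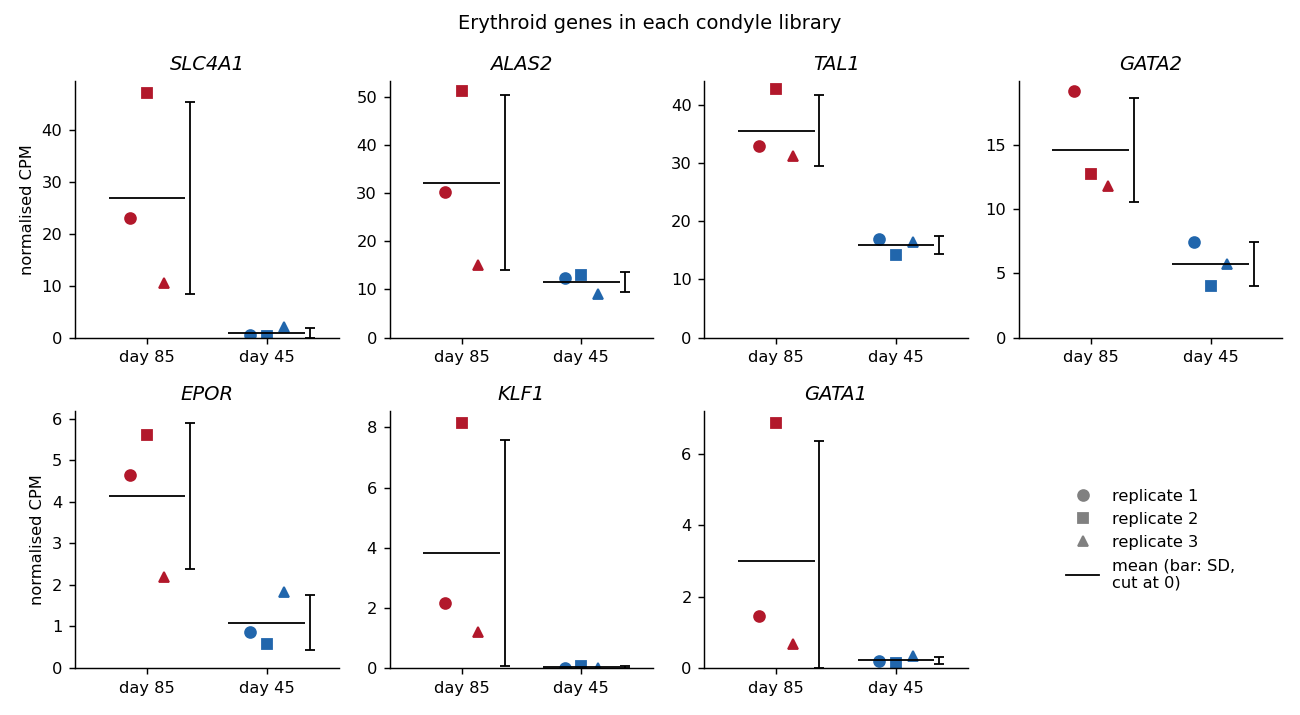
Normalised CPM (vertical axis, linear from 0) of each erythroid gene in the 3 day 85 libraries (red) and the 3 day 45 libraries (blue); lines are means, bars SD, and marker shapes the replicate number. The day 85 points lie above the day 45 points in each panel, and replicate 2 is the highest day 85 library for every gene but GATA2.

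SLC4A1, the anion exchanger of the mature red cell, had 298, 706 and 161 counts at day 85, against 8, 4 and 32 at day 45. In normalised CPM this was 23.0, 47.1 and 10.6 at day 85, against 0.490, 0.289 and 2.09 at day 45. All 3 day 85 libraries were high, replicate 2 the highest, and the lowest of them was above day 45 replicate 3, which stood well above the other day 45 libraries. The log2 fold change was 4.79 with an SE of 0.88 (edgeR adjusted p = 0.0379). The deposited table places the gene on chromosome 12 from 19179152 to 19196571, on a build that the sources used here do not name. Without day 85 replicate 2 the log2 fold change was 4.11, and without day 45 replicate 3 it was 6.06. The call was lost with no filter on low counts (adjusted p = 0.05004) and in limma-voom (0.0536).

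KLF1, the activator, in mouse and human, of the adult beta globin gene and of many red cell genes, had 28, 122 and 18 counts at day 85 and 0, 1 and 0 at day 45. The day 45 libraries thus held a single count between them. Summed over libraries, the ratio of day 85 to day 45 was 177, with an exact 95% counting interval of 31.4 to 7043 that leaves out the spread between libraries. Replicate 2 gave 122 of the 168 day 85 counts, and without it the ratio was 74.4 (interval 12.7 to 3004). In edgeR the log2 fold change was 6.98 (SE 1.28, adjusted p = 0.0363), a size that depends on how a day 45 level of 1 count is handled; it was 5.77 without day 85 replicate 2 and 8.84 without day 45 replicate 2. KLF1 lies on chromosome 2 at 66451872 to 66455605.

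GATA1, the master regulator of erythroid and megakaryocyte maturation, had 19, 103 and 10 counts at day 85 and 3, 2 and 5 at day 45. Replicate 2 carried most of the day 85 counts, and the lowest day 85 library lay above the highest at day 45 by few counts. The summed ratio was 13.9, with a 95% counting interval of 7.34 to 29.7. Without day 85 replicate 2 it was 4.69 (29 against 10 counts, interval 2.22 to 10.8). Tested with no filter on low counts, its log2 fold change was 3.68 with an SE of 0.99 and it was not called (edgeR adjusted p = 0.0830). GATA1 lies on chromosome X at 47745337 to 47752876.

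TAL1, the basic helix-loop-helix factor that works with GATA proteins in blood and vessel precursors, had 425, 640 and 474 counts at day 85 and 278, 196 and 252 at day 45. Its normalised CPM stood at 32.9, 42.7 and 31.3 at day 85, against 17.0, 14.1 and 16.5 at day 45. Libraries of an age were close to each other and the ages did not overlap. TAL1 rose 2.24-fold (log2 fold change 1.16, SE 0.17, edgeR adjusted p = 0.0222), and its log2 fold change ran from 1.01 to 1.25 with each library left out in turn. It lies on chromosome 6 at 151830155 to 151846185.

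GATA2, the factor of blood stem cells, endothelium and mast cells, had 248, 191 and 179 counts at day 85 and 121, 56 and 88 at day 45. Its normalised CPM was 19.2, 12.7 and 11.8 at day 85, against 7.41, 4.04 and 5.76 at day 45. Here replicate 1 and not replicate 2 was the highest day 85 library. GATA2 rose 2.53-fold (log2 fold change 1.34, SE 0.29, edgeR adjusted p = 0.0462). The call was lost with library totals as the only scaling (adjusted p = 0.0559) and in limma-voom (0.0512). GATA2 lies on chromosome 13 at 79606188 to 79613715.

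ALAS2, the first and rate-limiting enzyme of heme synthesis in red cells, had 392, 767 and 228 counts at day 85 and 203, 181 and 140 at day 45. In normalised CPM it was at 30.3, 51.1 and 15.0 at day 85, against 12.4, 13.1 and 9.16 at day 45. Day 85 replicate 3 lay just above the day 45 libraries and replicate 2 far above them. The log2 fold change was 1.48 (SE 0.44), which did not pass (edgeR adjusted p = 0.0895), and it was 0.97 without day 85 replicate 2 (adjusted p = 0.0687). ALAS2 lies on chromosome X at 53807665 to 53832133.

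EPOR, the receptor for erythropoietin, had 60, 84 and 33 counts at day 85 and 14, 8 and 28 at day 45. Its normalised CPM was 4.64, 5.60 and 2.18 at day 85 and 0.857, 0.577 and 1.83 at day 45. Day 85 replicate 3 and day 45 replicate 3 were close to each other, so the ages were separated by little. The log2 fold change was 1.91 (SE 0.53), which did not pass (edgeR adjusted p = 0.0740). EPOR lies on chromosome 2 at 70426996 to 70432219. The row named EPO, its ligand, is at 0 counts in all 6 libraries.

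**Figure D2:**
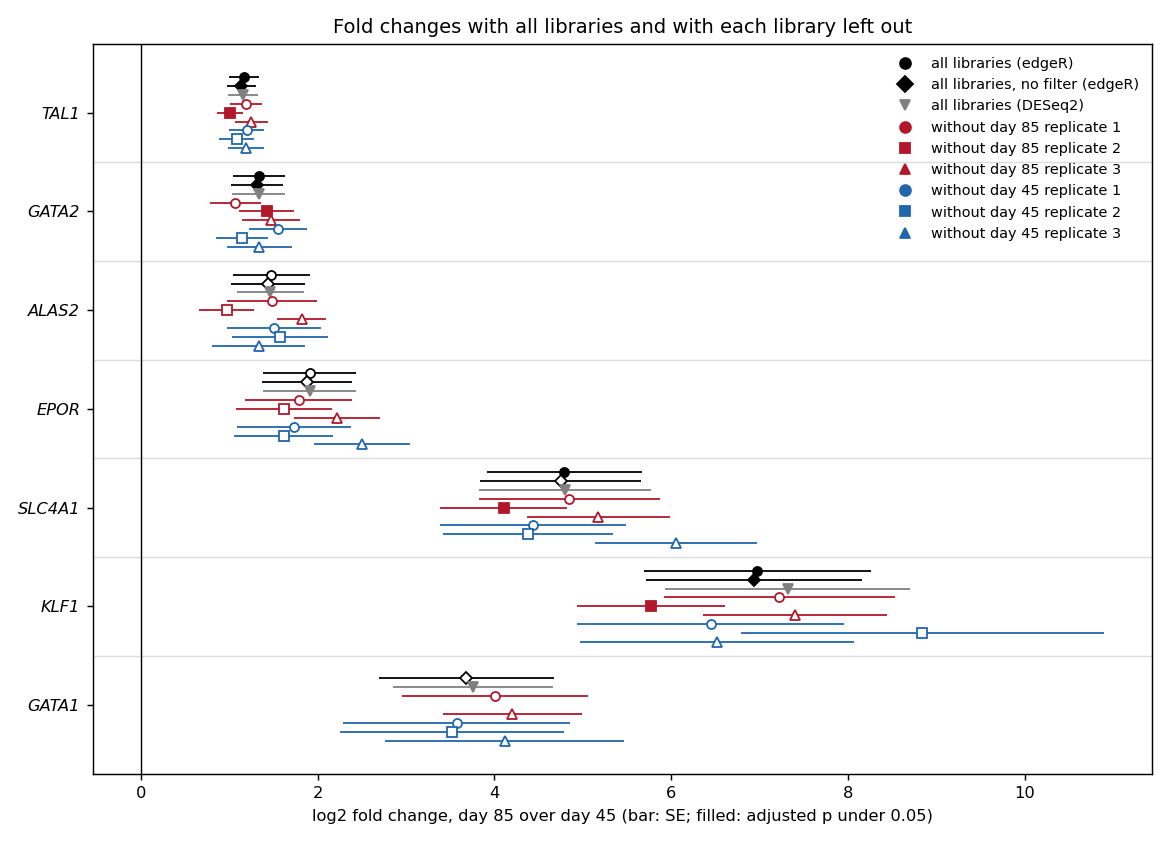
Log2 fold change, day 85 over day 45 (horizontal axis; bars are SE), of each erythroid gene with all libraries (edgeR with and without a filter on low counts, and DESeq2) and with each library left out in edgeR; filled markers have an adjusted p under 0.05. Every value lies right of 0; among the fits that leave out a library, filled markers are seen in the fits without day 85 replicate 2. The position of KLF1 depends on how a day 45 level of 1 count is handled, and GATA1 has no marker where it did not pass the filter.

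On a scale per gene length (the deposited FPKM), the genes kept different orders at the ages. At day 85 the mean FPKM was 8.74 ± 4.59 for ALAS2, 7.50 ± 0.98 for TAL1, 4.66 ± 1.48 for GATA2 and 4.01 ± 2.59 for SLC4A1 (SD, n = 3). Below them KLF1 had 2.24 ± 2.11, EPOR 2.23 ± 0.91 and GATA1 1.96 ± 2.13 FPKM. Of these neighbours, only TAL1 and GATA2 had ranges that did not overlap. At day 45 TAL1 was at 3.45 ± 0.45 FPKM, ALAS2 at 3.23 ± 0.42, GATA2 at 1.87 ± 0.56 and EPOR at 0.618 ± 0.410 (SD, n = 3). SLC4A1 followed at 0.154 ± 0.166, GATA1 at 0.154 ± 0.077 and KLF1 at 0.0142 ± 0.0246 FPKM. In that order TAL1 overlapped ALAS2, EPOR overlapped SLC4A1 and SLC4A1 overlapped GATA1, and the other neighbours were apart.

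The ratio of GATA1 to GATA2 in FPKM was 0.163, 1.15 and 0.119 at day 85, against 0.0528, 0.0760 and 0.121 at day 45. GATA1 exceeded GATA2 in day 85 replicate 2 alone, and the ages overlapped.

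HBB, the beta globin row, overlapped between the ages. It was at 1202, 2343 and 562 normalised CPM at day 85 and at 795, 710 and 417 at day 45, and did not pass (log2 fold change 1.10, SE 0.53, edgeR adjusted p = 0.228). Counts per 1000 HBB counts of the same library set the erythroid genes on a common scale, a measure chosen after the values were seen. SLC4A1 stood at 19.2, 20.1 and 18.9 per 1000 HBB counts in the day 85 libraries, with exact 95% counting intervals of 17.0 to 21.5, 18.6 to 21.6 and 16.1 to 22.0. At day 45 it stood at 0.616, 0.407 and 5.02, with intervals of 0.266 to 1.21, 0.111 to 1.04 and 3.44 to 7.09. The day 85 libraries, whose SLC4A1 level differed 4.43-fold from lowest to highest in CPM, were alike on this scale, while day 45 replicate 3 was far above the other day 45 libraries.

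KLF1 had 1.80, 3.47 and 2.11 counts per 1000 HBB counts at day 85, against 0, 0.102 and 0 at day 45. GATA1 had 1.22, 2.93 and 1.17 at day 85, against 0.231, 0.203 and 0.785 at day 45. AHSP, the chaperone of free alpha globin, had 3.41, 5.35 and 4.11 at day 85 and 1.15, 1.52 and 1.73 at day 45. For these genes and for SLC4A1 the ages did not overlap, and a two-sided exact permutation test gave p = 0.1, the smallest it allows. ALAS2 had 25.2, 21.8 and 26.7 per 1000 HBB counts at day 85 and 15.6, 18.4 and 22.0 at day 45, and the ages overlapped (exact permutation p = 0.2). EPOR, TAL1 and GATA2 overlapped too. HBZ, the zeta globin of embryonic red cells, ran the other way, with 0.514, 0.768 and 0.587 per 1000 HBB counts at day 85 and 1.46, 2.64 and 2.98 at day 45. It rests on 8, 27 and 5 counts at day 85 and 19, 26 and 19 at day 45. In normalised CPM HBZ overlapped between the ages, with 0.618, 1.80 and 0.330 at day 85 and 1.16, 1.88 and 1.24 at day 45. It was not called there (edgeR log2 fold change -0.62, adjusted p = 0.521). With HBB and HBQ1 summed as the denominator, SLC4A1, KLF1, GATA1 and AHSP again lay higher, and HBZ lower, in all 3 day 85 libraries.

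**Figure D3:**
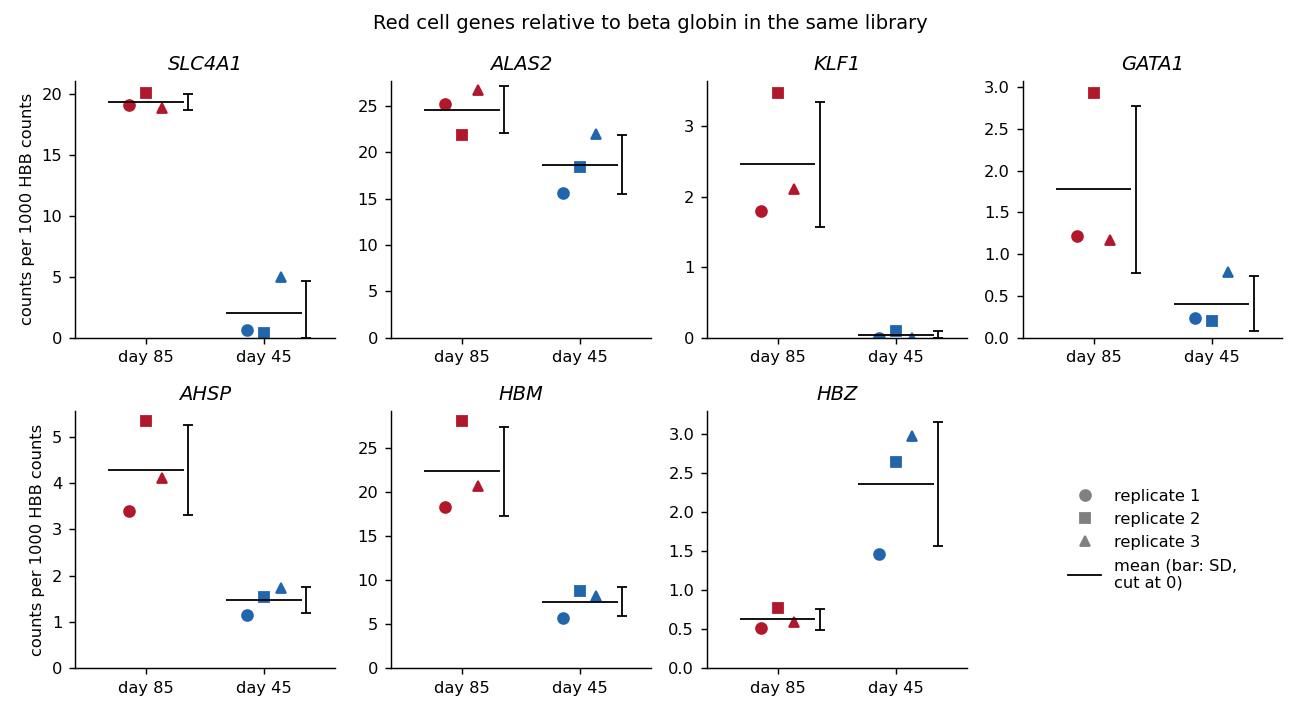
Counts of each gene per 1000 HBB counts of the same library (vertical axis, linear from 0), day 85 in red and day 45 in blue; lines are means, bars SD and shapes the replicate number. SLC4A1 lies at 18.9 to 20.1 in the day 85 libraries and at 5.02 or below at day 45, ALAS2 overlaps between the ages, and HBZ is lower at day 85.

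TAL1 and GATA2 were also set against the endothelial list, since both are endothelial genes. Of its 15 tested members 10 rose and 0 fell in edgeR, beside 3.9% of all tested genes higher and 2.66% lower. The median log2 fold change of the list was 1.27, beside 0.02 for all tested genes. Leaving out day 85 replicate 2 gave 14 calls, beside 12.3% of all genes tested there called higher. Leaving out any 1 other library gave 0 to 2, beside 0% to 0.611% higher. EGFL7, which like PECAM1 has a high mean over all 6 libraries, rose to 296 ± 51.3 CPM at day 85, against 171 ± 9.35 at day 45 (adjusted p = 0.0377). VWF rose 6.40-fold (adjusted p = 0.0160), MMRN2 3.85-fold (adjusted p = 0.0443), PECAM1 3.15-fold (adjusted p = 0.0362) and FLT1, a VEGF receptor, 3.13-fold (adjusted p = 0.0432). GATA2 had 8.60, 8.28 and 7.13 counts per 1000 counts of the endothelial list at day 85 and 9.82, 6.11 and 6.37 at day 45. TAL1 had 14.7, 27.7 and 18.9 at day 85 and 22.6, 21.4 and 18.2 at day 45. On this scale the ages overlapped for both (exact permutation p = 0.7 for GATA2 and 0.9 for TAL1), and the ratio of day 85 to day 45 means was 1.08 for GATA2 and 0.99 for TAL1. Per 1000 PECAM1 counts the ages overlapped for both too, but the ratio of means was 0.775 for GATA2 and 0.708 for TAL1. Per 1000 counts of the list SLC4A1, KLF1 and GATA1 were apart, with 10.3, 30.6 and 6.42 at day 85 against 0.649, 0.437 and 2.32 at day 45 for SLC4A1. GATA1 was apart by little, with 0.659, 4.47 and 0.399 at day 85 against 0.243, 0.218 and 0.362 at day 45, and overlapped per 1000 PECAM1 counts. ALAS2 and EPOR overlapped on the scale of the list, so overlap there was not confined to TAL1 and GATA2. ALAS2 had 13.6, 33.3 and 9.09 at day 85 against 16.5, 19.8 and 10.1 at day 45. EPOR had 2.08, 3.64 and 1.32 at day 85 against 1.14, 0.873 and 2.03 at day 45. The part of endothelial RNA in the rise of TAL1 and GATA2 was not tested further.

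Between the day 85 libraries the genes differed in how far replicate 2 stood out. Its level over the mean of replicates 1 and 3 was 6.45 for GATA1, 4.85 for KLF1, 2.80 for SLC4A1, 2.26 for ALAS2 and 1.64 for EPOR in normalised CPM. For TAL1 it was 1.33 and for GATA2 0.822. HBB had 2.66 and AHSP 3.91. The same ratio was 7.06 for the osteoclast gene ACP5 and 0.0900 for the muscle actin ACTA1. GATA1, KLF1, SLC4A1 and ACP5 were thus highest in the same library, whereas the spectrin and ankyrin genes SPTB and ANK1, made in red cells and in muscle, were there at 0.118 and 0.136 times the mean of replicates 1 and 3. The part of a different tissue make-up in it was not tested.

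**Figure D4:**
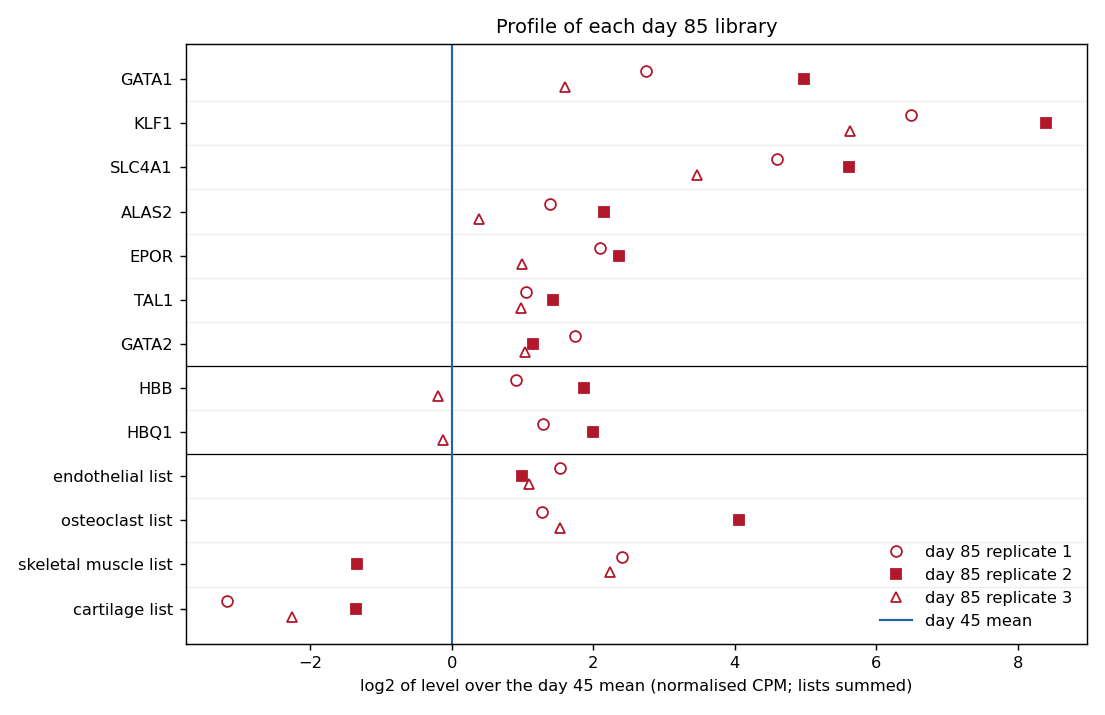
Log2 of the level in each day 85 library over the mean of the day 45 libraries (vertical line at 0), for the erythroid genes, 2 globin rows and 4 summed marker lists in normalised CPM. Replicate 2 (filled squares) is rightmost for GATA1, KLF1, SLC4A1, ALAS2, EPOR, TAL1, the globins and the osteoclast and cartilage lists, but not for GATA2 or the endothelial list, and is the leftmost for the muscle list.

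Of 13 tested partners of the erythroid factors, 1 rose and 0 fell in edgeR, beside 3.9% of all tested genes called higher and 2.66% called lower. The median log2 fold change was 0.27. The riser was NFE2, a factor of late globin expression, with 37, 110 and 25 counts at day 85 and 8, 3 and 6 at day 45 (edgeR log2 fold change 3.39, SE 0.67, adjusted p = 0.0389). NFE2 was not called by limma-voom, nor by edgeR with the replicate number added to the model (adjusted p = 0.0589). LDB1, which bridges GATA1 and TAL1 complexes, was the most abundant and stood at 291 ± 16.4 CPM at day 85 and 266 ± 32.5 at day 45 (adjusted p = 0.553). KLF3, a repressor that binds KLF1 sites, was at 83.9 ± 9.11 and 87.1 ± 0.57 CPM at day 85 and day 45 (SD, n = 3; adjusted p = 0.789). GFI1B and BCL11A are named after their values were seen. GFI1B, a GATA1 target, had 10, 32 and 13 counts at day 85 and 0, 3 and 3 at day 45 (adjusted p = 0.0634). BCL11A, the repressor of fetal globin in humans, had 60, 125 and 123 counts at day 85 and 191, 219 and 248 at day 45. It was not called with all libraries (edgeR adjusted p = 0.0638). When day 85 replicate 2 was left out it was called lower (adjusted p = 0.0281), beside 10% of all genes tested there called lower.

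Genes of erythropoietin and stem cell factor signalling were higher in part. Of 10 tested, 3 rose and 0 fell, with a median log2 fold change of 0.77. CISH and SOCS2, feedback inhibitors induced by cytokine receptors through STAT5, rose 3.78-fold and 2.36-fold (edgeR adjusted p = 0.0354 and 0.0383). SH2B3, an adaptor that restrains JAK2, rose 1.47-fold (adjusted p = 0.0390). CISH had 185, 99 and 250 counts at day 85 and 51, 51 and 47 at day 45, so it was lowest at day 85 in replicate 2, unlike EPOR. The 2 most abundant members, GAB1 and STAT5A, stood at 108 ± 18.3 and 83.5 ± 20.8 CPM in day 85 libraries, against 86.2 ± 6.94 and 54.8 ± 5.85 CPM in those of day 45, and were not called. Without day 85 replicate 2, 7 members were called higher, beside 12.3% of all genes tested there and 3.9% with all libraries. With library totals as the only scaling 1 was, beside 2.91% of all tested genes.

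Heme synthesis and iron supply gave 0 calls in edgeR in either direction. Of 10 heme genes, 3 had an unadjusted p under 0.05, of which 2 were higher, and the median log2 fold change was 0.24. Over all tested genes 15.8% were higher and 13.3% lower at that threshold. DESeq2 called 2 of the heme genes higher and 1 lower, beside 12.6% and 10.8% of its genes. The heme counts were thus near the shares over all genes. ALAS1, the form of the enzyme used outside red cells, was at 67.7 ± 3.80 CPM at day 85 and 54.9 ± 2.10 at day 45 (adjusted p = 0.123), and CLPX, a mitochondrial unfoldase that acts on the enzyme, at 71.6 ± 3.67 and 62.2 ± 4.52 CPM. Log2 fold changes of these 10 genes ran from -0.40 (PPOX) to 0.55 (CPOX), beside 1.48 for ALAS2. Of 8 iron genes, 4 had an unadjusted p under 0.05, of which 3 were higher, and DESeq2 called 2 higher and 1 lower. The same shares over all genes stand beside these counts. The ferritin light chain FTL was at 873 ± 239 and 633 ± 99.3 CPM at day 85 and day 45, and the cytosolic aconitase ACO1, whose protein also binds iron-responsive RNA, at 83.2 ± 7.28 and 101 ± 3.19 CPM.

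Of the globins and their chaperone, 5 were tested and 0 were called in edgeR, while 2 had an unadjusted p under 0.05, each higher, and DESeq2 called 3, each higher. Over all genes 15.8% were higher at that unadjusted p, and DESeq2 called 12.6% higher. HBQ1 was at 1847 ± 1159 CPM at day 85 and 754 ± 248 at day 45 (adjusted p = 0.175). No row carried the alpha-globin names looked for, and alpha-family genes share sequence, so which gene the counts under HBQ1 come from is uncertain. HBM, the mu globin row, and AHSP were called higher without day 85 replicate 2 (edgeR adjusted p = 0.0138 and 0.0191), beside 12.3% of all genes tested there. With all libraries their adjusted p-values were 0.0629 and 0.0587.

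Genes of the red cell membrane and cytoplasm included 2 that rose and 0 that fell among 15 tested, with a median log2 fold change of 1.34. KEL, the Kell blood group protein, had 61, 92 and 44 counts at day 85 and 7, 9 and 18 at day 45, a log2 fold change of 2.60 (SE 0.46, edgeR adjusted p = 0.0319). Like SLC4A1, KEL was highest in day 85 replicate 2. The most abundant members were not highest there. SPTB, beta spectrin, had 8209, 1371 and 13796 counts at day 85 and 1251, 447 and 1892 at day 45, and TMOD1, which caps actin filaments, had 3206, 941 and 3184 at day 85 and 1601, 1096 and 1922 at day 45 (adjusted p = 0.109 and 0.339). SPTB and TMOD1 are also muscle proteins, and like the skeletal muscle list they were lowest at day 85 in replicate 2; the part of muscle RNA in their values was not tested. Without that library 8 of the 15 were called higher, beside 12.3% of all genes tested there and 3.9% with all libraries. SPTB and TMOD1 were among the 8 (edgeR adjusted p = 0.0111 for each).

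**Figure D5:**
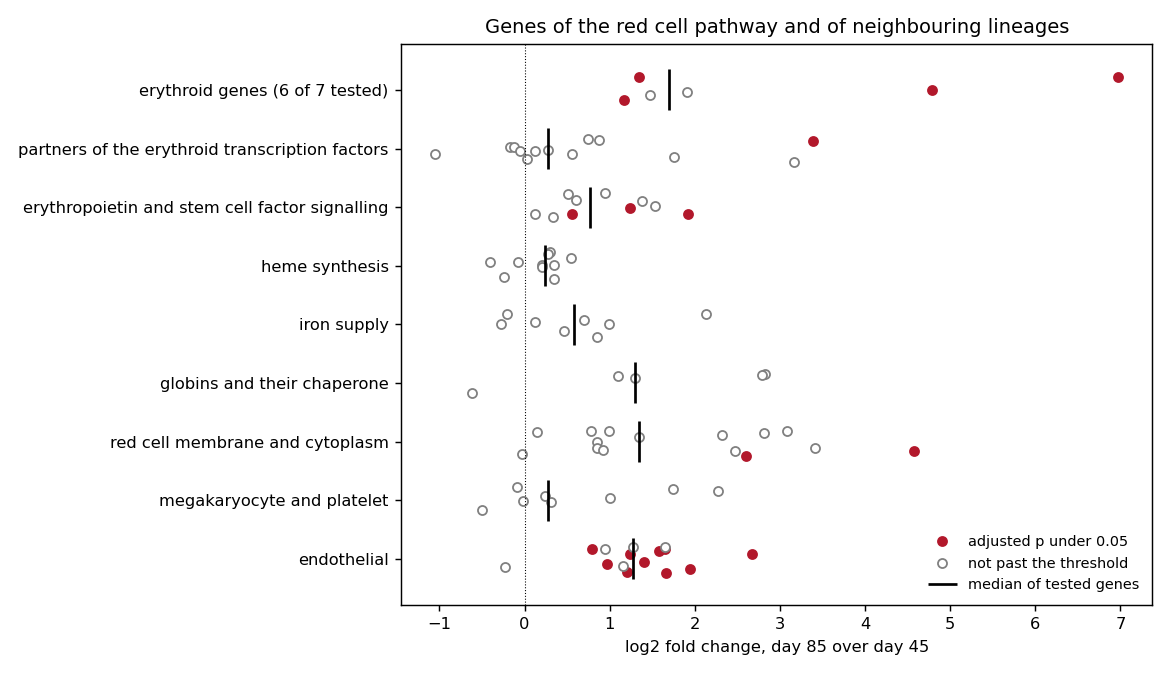
Log2 fold change, day 85 over day 45 (horizontal axis), of each tested gene in the erythroid set, 6 red cell pathway lists, the megakaryocyte list and the endothelial list; red points have an adjusted p under 0.05 in edgeR and black bars are medians. KLF1 and SLC4A1 lie at the right, heme synthesis genes lie between -0.40 and 0.55, and the endothelial list holds 10 red points.

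The genes most like SLC4A1 across the 6 libraries, by Pearson's r of log2(normalised CPM + 0.5) over 12095 other named genes, were ITSN1 (0.998), ICAM2 (0.998), CYBB (0.996), HR (0.994) and TMCC2 (0.994). The 6 points share library depth and the gap between the ages, so these values are a description. EPOR ranked 86 and TAL1 90 in that order, KLF1 316, GATA2 880 and ALAS2 1122. GATA1 was not ranked, since it did not pass the filter on low counts. For GATA2 the most like were the endothelial gene MMRN2 (0.995), the peptide hormone gene APLN (0.995), GINM1 (0.994), IFIH1 (0.994) and SEPT1 (0.991). Among the erythroid genes, TAL1 ranked nearest to GATA2 at 571 and ALAS2 farthest at 1977.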

How the data were processed

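Gene-level read counts and FPKM values were deposited by the authors in a single table, per the file headers. The submitters' processing notes list HISAT2 with no version. Not given in the sources used here are the program that counted reads, whether it used strand, the annotation and the genome build. RNA was depleted of ribosomal RNA and the second cDNA strand was degraded, per the labels' protocols.

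Rows were matched by the table's gene name, or for 1774 rows by an ID table. Of several rows with 1 name, that with the highest summed counts was kept. The test on deposited counts was that of edgeR 4.0.16 (R 4.3.3), using filterByExpr (minimum count 10), TMM, robust dispersions, the quasi-likelihood F test and age as the only factor. SE is the log2 fold change divided by the square root of F. Deposited FPKM values served only to compare levels between genes. Ratios to HBB and to the endothelial list were chosen after the values were seen. Pooled count ratios and ratios to HBB have exact 95% intervals for counting error only. The test was checked on simulated data.

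The erythroid genes and the 14 other gene lists were chosen with earlier results of these data known. Of the 211 list entries, 177 matched a row. The text names all erythroid genes, the called members of each pathway list and its 2 most abundant members, and the 5 genes most like SLC4A1 and GATA2. For lists with more than 6 calls it names the 4 with the largest change. Cartilage, muscle and osteoclast lists are given as sums or single markers. Alternatives were other scalings (RLE, upper quartile, library totals), other filters (none, or 1 CPM in at least 3 libraries), other tools (limma-voom in limma 3.58.1 and DESeq2 1.42.0), a replicate block and leaving out each library. A gene that this rule selects is not reported here. No sequences of these genes were used here.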

Additional observations from a re-analysis of the deposited data

How the results depend on the processing

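The erythroid log2 fold changes were positive in 90 of 90 fits under the alternatives. The ages did not overlap for any of the 7 genes under any setting, so a negative value was hardly possible. This count is a description of the same libraries and no further evidence. The 4 erythroid genes called higher became 3 with library totals only, 3 with no filter, 3 with the replicate block, 2 with limma-voom and 7 with DESeq2, and 0 to 4 with each library left out. No erythroid gene was called lower in any of these fits (0 to 0 with each library left out). SLC4A1 was lost with no filter (adjusted p = 0.05004), with limma-voom (0.0536) and with the replicate block (0.0603), and GATA2 with limma-voom (0.0512) and library totals only (0.0559). Over all genes, 586 were called higher and 400 lower, which became 437 and 598 with library totals only, 2064 and 1770 with DESeq2, and 0 to 1884 higher and 0 to 1528 lower with each library left out; the lowest counts were without day 45 replicate 2 and the highest without day 85 replicate 2. The cause was not tested, beyond the fact that leaving out a library leaves fewer samples. With the replicate block 465 were higher and 217 lower, and of the signalling list 1 was called in place of 3. Same-numbered libraries deviated together at r = 0.0265, 0.281 and 0.0816 for numbers 1, 2 and 3, and differently numbered ones at -0.299 to 0.273. The labels do not say whether the numbers pair the samples, and so few values cannot settle it. Of 392 list counts under the alternatives, 319 stayed within 1.5 times or at 0, 43 were fewer and 30 more. Most of the 319 were counts of 0 that stayed at 0, and a count of 0 cannot become fewer. The 319 thus say little of how stable the called lists are. Genes with fewer than about 10 counts a library, such as GATA1 at day 45, are limited by depth.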

Other observations

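Of 15 matched megakaryocyte and platelet genes, 8 were tested and 0 were called by edgeR, while 3 had an unadjusted p under 0.05 and DESeq2 called 2, each of these higher. Over all genes 15.8% were higher at that unadjusted p, and DESeq2 called 12.6% higher. By edgeR, 2 genes of the list were called higher without day 85 replicate 2, beside 12.3% of all genes tested there. The summed list stood at 195, 628 and 188 CPM at day 85, against 123, 120 and 132 at day 45. PF4 and GP5, platelet genes, were listed at 0 counts in all 6 libraries. ITGB3, the list's most abundant gene and also an osteoclast integrin, was at 78.2, 545 and 84.4 CPM at day 85 and 44.4, 61.9 and 40.4 at day 45, and F2RL2 at 62.7 ± 10.6 and 50.6 ± 16.1 CPM.

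Of 9 tested genes of blood stem and progenitor cells, 2 rose and 0 fell in edgeR, beside 3.9% of all tested genes called higher and 2.66% called lower. The risers were CD34, 2.01-fold, and CD93, 2.37-fold (edgeR adjusted p = 0.0247 and 0.0200), which endothelial cells also express. Leaving out day 85 replicate 2 gave 5 calls, each higher, beside 12.3% of all genes tested there. Of 12 tested neutrophil genes 0 were called by edgeR, with 3 higher at an unadjusted p under 0.05, and 2 higher by DESeq2. Over all genes these shares were 15.8% and 12.6%. Leaving out day 85 replicate 2, edgeR called 1 neutrophil gene higher, beside 12.3% of all genes tested there. The most abundant, ELANE and LCN2, were at 5.30 ± 1.11 and 5.85 ± 5.15 CPM in day 85 libraries, against 4.37 ± 0.39 and 3.79 ± 0.96 CPM in those of day 45. CAMP, a granule peptide gene named after its values were seen, had 17, 121 and 14 counts at day 85 and 0, 0 and 7 at day 45, again highest in day 85 replicate 2. The mast cell list had 1 tested gene, MS4A2, with 50, 65 and 33 counts at day 85 and 18, 8 and 26 at day 45 (3.04-fold, edgeR adjusted p = 0.0777). DESeq2 called it higher (adjusted p = 0.00537), the only call among 5 genes of the list, beside 12.6% of its genes called higher.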
